A study of Mus musculus with 16 samples.

Results

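The microRNAs described here are 7 that laboratories often use as references when miRNA levels are normalized, followed over the 16 kidney arrays of the study. They were chosen by name, and each was matched by its exact name in the scanner output: mmu-miR-423-5p, mmu-miR-423-3p, mmu-miR-191-5p, mmu-miR-484, mmu-miR-320-3p, mmu-miR-361-5p and mmu-miR-186-5p, which are 7 of the 1881 mouse miRNAs on the array. The RNA came from the kidney cortex of male SAMP1 mice, a senescence-accelerated prone strain, and of male SAMR1 mice, the senescence-accelerated resistant strain that served as its control. Both strains were examined at 10 weeks (SAMP1-10wk and SAMR1-10wk) and at 50 weeks of age (SAMP1-50wk and SAMR1-50wk), with 4 mice in each of the 4 groups. Every mouse was measured on 1 single-colour Agilent array.

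A miRNA is cut from a hairpin precursor and guides an Argonaute protein to target mRNAs, mainly through the seed, the bases 2 to 8 from its 5′ end. A hairpin can give a mature miRNA from either arm, and these are named 5p and 3p. A reference miRNA is meant to stay level between the samples compared, so that dividing by it removes differences in RNA input, labelling and scanning. Any real shift of the reference between groups is passed on, with its sign turned, to every miRNA divided by it.

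The mature sequences below are those of RefSeq on GRCm38.p6, with the seed in capitals. They are shown because the array probes pair with their 3′ ends and because the seed shows whether reference miRNAs share targets. The tables gave a mature sequence for 6 of the 7, and miRNA-16-5p, a reference in the serum qRT-PCR of the study as miRNA-423-5p was, is printed for comparison.
mmu-miR-423-5p: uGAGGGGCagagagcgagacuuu
mmu-miR-423-3p: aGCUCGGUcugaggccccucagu
mmu-miR-191-5p: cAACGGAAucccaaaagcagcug
mmu-miR-484: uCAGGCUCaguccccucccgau
mmu-miR-361-5p: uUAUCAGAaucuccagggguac
mmu-miR-186-5p: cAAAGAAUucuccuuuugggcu
mmu-miR-16-5p: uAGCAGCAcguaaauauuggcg

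No 2 of the 6 printed reference miRNAs shared a seed. miRNA-423-5p shared its seed with 1 other mature mouse miRNA of the table, miRNA-6921-5p, whereas the seed of miRNA-16-5p stood in 10 mature names, among them miRNA-15a-5p, miRNA-195a-5p and miRNA-497a-5p. The genes lay on 6 chromosomes, so that 6 separate precursors stood behind the 7 names. miRNA-423-5p (chr11:77078122-77078144, minus strand) and miRNA-423-3p (chr11:77078086-77078108, minus strand) are both arms of Mir423, which lies within the span of Nsrp1. miRNA-191-5p (chr9:108568325-108568347, plus strand) lies within the span of Dalrd3, as does the neighbouring Mir425. miRNA-361-5p (chrX:113074867-113074888, minus strand) lies within Chm, and miRNA-186-5p (chr3:157544285-157544306, plus strand) within Zranb2. No protein-coding gene of the table spanned miRNA-484 (chr16:14159630-14159651, plus strand) or Mir320 (chr14:70443510-70443591).

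Of the 7 reference miRNAs, 5 were detected, each on all 16 arrays, and the other 2, miRNA-423-3p and miRNA-191-5p, on none. Detection is the call of the scanner software, and an undetected miRNA was listed at the fixed value of 0.1. The total gene signal, the software's background-subtracted sum over the probes of a miRNA, ran from 7.29 to 18.4 for miRNA-423-5p, from 9.58 to 16.98 for miRNA-484 and from 8.07 to 14.9 for miRNA-320-3p. It ran from 29.8 to 71.5 for miRNA-361-5p and from 4.74 to 12.3 for miRNA-186-5p. These signals depend on the probe as well as on the miRNA and are therefore compared only between arrays. Over the whole array, 352 to 445 miRNAs were detected per mouse, 322 were detected on all arrays and 1412 on none, and no spot was saturated.

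The 2 undetected members lay within the spread of the negative-control spots, which carry probes without a target. Averaged over its spots, miRNA-423-3p stood between -0.25 and 0.38 negative-control SDs from the negative-control mean, and miRNA-191-5p between -0.59 and 0.10. The detected members stood above it on every array, from 2.43 SDs for miRNA-186-5p on the array of SAMP1-50wk animal 11 up to 41.04 SDs for miRNA-361-5p. On the array of animal 11 the negative-control SD was 6.84, against 2.67 to 3.81 on the others. There, 99.8% of the negative-control spots lay below miRNA-186-5p. No level of miRNA-423-3p or miRNA-191-5p could be compared between groups, because both were not well above background in any mouse.

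**Figure D1:**
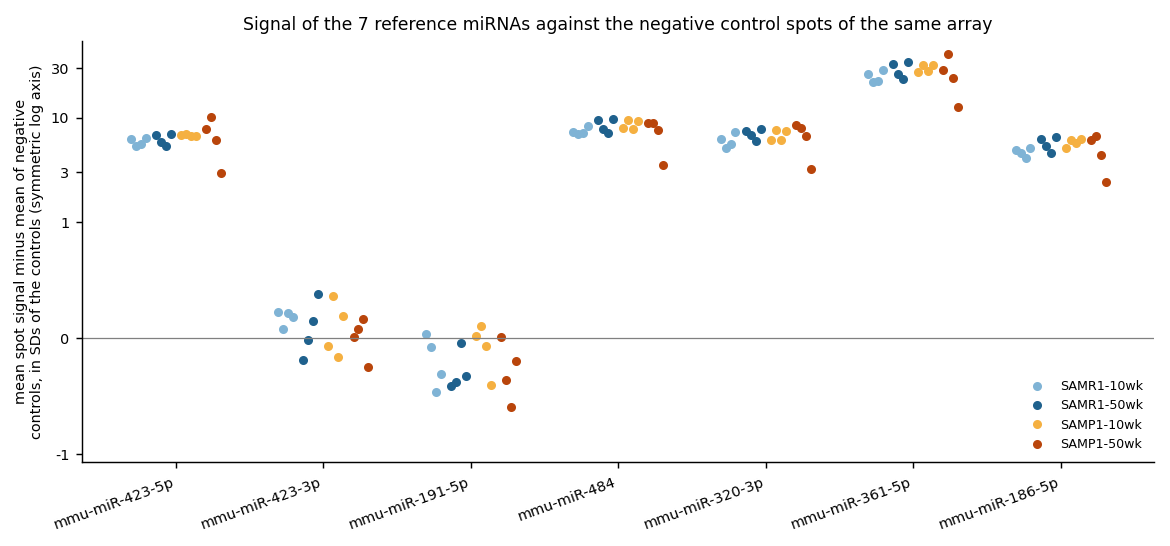
Mean processed spot signal of each of the 7 reference miRNAs, in SDs of the negative-control spots from their mean (vertical axis, linear near 0 and logarithmic beyond), with 1 point per array and the 4 groups in separate colours. miRNA-423-3p and miRNA-191-5p lie between -0.59 and 0.38, and the other 5 lie at 2.43 or above on all 16 arrays. The 2.43 is from SAMP1-50wk animal 11, whose array had the widest negative-control spread (SD 6.84).

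The undetected and the detected members differed in their number of probes. miRNA-423-3p and miRNA-191-5p were each read by 4 probes, of 11 to 14 and 12 to 15 bases, whereas the other 5 were each read by 2 probes with 15 spots apiece. Among the 1881 miRNAs, 28 of the 273 with 4 probes were detected on all arrays (10.3%), against 280 of the 1493 with 2 probes (18.8%). Probe lengths overlapped, as the detected miRNA-320-3p was read by probes of 12 and 13 bases, and 17.6% of the miRNAs with a longest probe of up to 15 bases were detected on all arrays, against 16.8% of those with longer ones. The longest probes of the 2 undetected members are printed with those of miRNA-186-5p, to which a later result refers. For the 6 members with a mature sequence, every probe was the exact complement of its 3′ end.
miRNA-423-3p, 14 bases: actgaggggcctca
miRNA-191-5p, 15 bases: cagctgcttttggga
miRNA-186-5p, 20 bases: agcccaaaaggagaattctt
miRNA-186-5p, 21 bases: agcccaaaaggagaattcttt

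Other arms of the same precursors were also measured. miRNA-191-3p, the opposite arm of miRNA-191-5p, was detected on all 16 arrays with a signal of 2.51 to 6.03. miRNA-425-5p, from the neighbouring precursor within Dalrd3, was detected on all 16 with 16.1 to 40.96. The opposite arms miRNA-320-5p, miRNA-361-3p and miRNA-186-3p, and also miRNA-425-3p, were detected on 0 arrays.

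Before any scaling, all 5 detected reference miRNAs gave more signal in SAMP1 than in SAMR1 kidneys. The total gene signal of miRNA-423-5p was 8.81, 9.43, 8.82 and 8.53 in the 4 SAMR1-10wk mice and 9.54, 8.42, 7.29 and 8.65 in the SAMR1-50wk mice. It was 10.7, 12.2, 10.6 and 8.20 in the SAMP1-10wk mice and 13.6, 18.4, 13.8 and 9.32 in the SAMP1-50wk mice. The highest values were thus in SAMP1-50wk, and the strains overlapped at both ages through SAMP1-10wk animal 6 and SAMP1-50wk animal 11.

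For miRNA-361-5p the signal at 10 weeks was 35.2, 36.8, 33.0 and 35.2 in SAMR1 and 39.9, 52.3, 41.3 and 37.7 in SAMP1, and at 50 weeks it was 42.1, 35.6, 29.8 and 39.5 in SAMR1 and 48.4, 71.5, 50.6 and 38.0 in SAMP1. All 4 SAMP1-10wk values exceeded the SAMR1-10wk values, and at 50 weeks the strains overlapped. For miRNA-484 the values at 10 weeks were 10.2, 12.0, 11.0 and 10.9 in SAMR1 and 12.1, 16.3, 12.0 and 11.3 in SAMP1, and at 50 weeks 12.8, 11.1, 9.58 and 11.7 in SAMR1 and 15.6, 16.3, 16.98 and 11.1 in SAMP1. The SAMP1-50wk mice lay above every SAMR1 mouse except animal 11, which lay among them.

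For miRNA-320-3p the signal at 10 weeks was 8.86, 9.15, 8.76 and 9.51 in SAMR1 and 9.57, 13.1, 9.68 and 9.21 in SAMP1, and at 50 weeks 10.3, 9.71, 8.07 and 9.59 in SAMR1 and 14.9, 14.8, 14.8 and 10.1 in SAMP1. Again SAMP1-50wk animal 11 was within the range of the SAMR1 mice and the other 3 were above it. For miRNA-186-5p it was 7.05, 8.26, 4.74 and 6.88 in SAMR1 and 8.15, 10.6, 9.05 and 7.68 in SAMP1 at 10 weeks, and 8.90, 7.79, 6.42 and 8.10 in SAMR1 and 10.9, 12.3, 10.1 and 7.83 in SAMP1 at 50 weeks. The value of 4.74, from SAMR1-10wk animal 5, was the lowest of the 16.

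On the log2 scale without scaling, the strain difference (SAMP1 minus SAMR1, averaged over both ages) was 0.44 for miRNA-423-5p, 0.40 for miRNA-186-5p, 0.38 for miRNA-361-5p, 0.35 for miRNA-320-3p and 0.31 for miRNA-484. Their limma p-values, adjusted by Benjamini-Hochberg over the 381 miRNAs tested, were 0.00971, 0.0162, 0.0168, 0.0130 and 0.0258, so that 5 of 5 passed 0.05. The background was 71.1% of the 381, with 271 higher and 0 lower in SAMP1.

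A setting of the scanning software moved with strain. The file headers give the fraction of the nominal spot area that was used as the effective feature size. It was the default of 0.6 on 12 arrays, whereas it had been estimated from the image on 4 arrays, all of SAMP1 mice: 0.762 for SAMP1-10wk animal 4, and 0.759, 0.770 and 0.764 for SAMP1-50wk animals 1, 2 and 4. The total gene signal is proportional to this fraction. With every array brought to the default, a setting chosen after seeing the data, the unscaled strain difference was 0.27 for miRNA-423-5p (adjusted p = 0.0302), 0.18 for miRNA-320-3p (0.0302), 0.23 for miRNA-186-5p (0.0846), 0.20 for miRNA-361-5p (0.0732) and 0.14 for miRNA-484 (0.105). Then 2 of 5 passed, against a background of 47.2%, with 180 higher and 0 lower. The factor cancels in every scaled value.

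**Figure D2:**
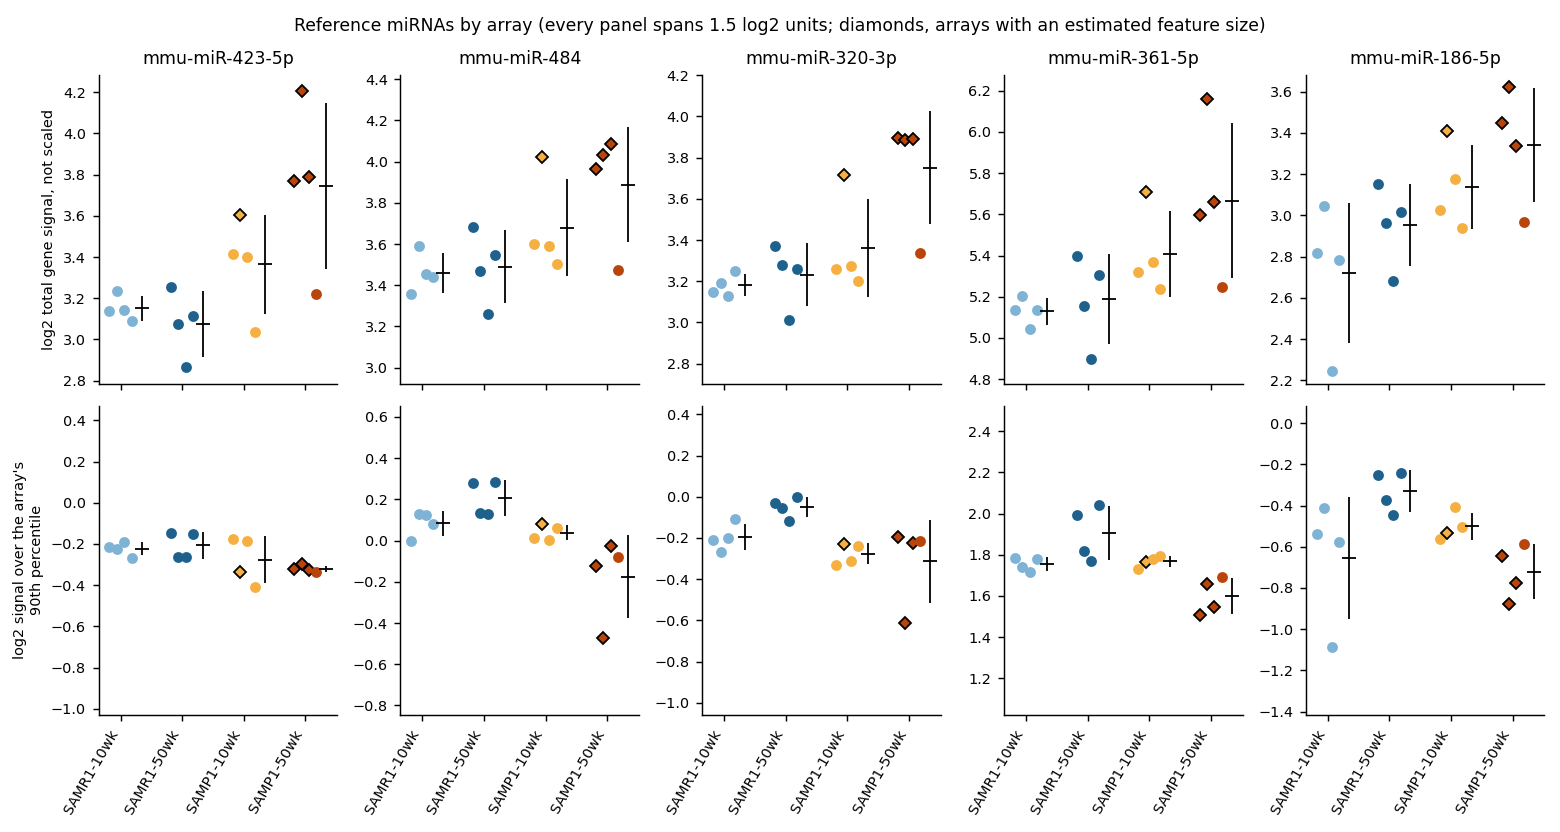
Log2 total gene signal of the 5 detected reference miRNAs on each array, unscaled (upper row) and after division by the 90th percentile of the array (lower row), by group; lines and bars give the mean ± SD of 4 mice, diamonds mark the 4 arrays with an estimated feature size, and each panel spans 1.5 log2 units. The SAMP1-50wk mice reach the highest unscaled values and, at 50 weeks after scaling, lie below the SAMR1 mice for all 5.

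The study scaled each array to its 90th percentile, and with that scaling the sign of the strain difference turned for all 5. With the feature sizes left as they were, the mean log2 signal of the 5 detected reference miRNAs was 0.38 higher in SAMP1 than in SAMR1. The 90th percentile over all miRNAs ran from 8.76 to 22.7 and differed more, by 0.52 (log2). Scaled in this way, miRNA-484 was lower in SAMP1 by a log2 difference of -0.21 (SE 0.0599, adjusted p = 0.0174, limma), miRNA-320-3p by -0.17 (SE 0.0584, 0.0388) and miRNA-361-5p by -0.15 (SE 0.0467, 0.0299). miRNA-423-5p, at -0.08 (SE 0.0415, 0.141), and miRNA-186-5p, at -0.12 (SE 0.0850, 0.279), did not pass. So 3 of 5 were called, all lower, against a background of 31.2% of the 381 miRNAs (28 higher and 91 lower, the latter being 23.9%). On the authors' own values, which are also scaled to the 90th percentile, miRNA-484 alone passed, at -0.19 (0.0434), with -0.15 (0.0797) for miRNA-320-3p and -0.12 (0.0956) for miRNA-361-5p, and 21.5% of the miRNAs were called (27 higher and 55 lower).

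The same scaling moved the median of the 322 miRNAs detected on all arrays to -0.09 for strain. Relative to that median, the difference was 0.00 for miRNA-423-5p, -0.03 for miRNA-186-5p, -0.06 for miRNA-361-5p, -0.08 for miRNA-320-3p and -0.13 for miRNA-484. The strains also occupied separate rows of each slide, and the ages separate slides, so strain cannot be told apart from slide row, nor age from slide. In RNA of whole cortex tissue, fewer cells of a type and less of a miRNA per cell cannot be told apart either.

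Split by age, the calls stood at 50 weeks. At 10 weeks the 5 differences ran from -0.08 to 0.15 and 0 of 5 passed (background 4.46%). The upper end was miRNA-186-5p, which stood at 0.00811 without SAMR1-10wk animal 5. At 50 weeks they were -0.39 for miRNA-186-5p (adjusted p = 0.0187), -0.38 for miRNA-484 (0.00299), -0.30 for miRNA-361-5p (0.00258), -0.26 for miRNA-320-3p (0.0214) and -0.11 for miRNA-423-5p (0.121). Thus 4 of 5 were called lower, against a background of 47.2% (180 miRNAs), of which 154 were lower in SAMP1 (40.4%). These calls also depended on the scale: at 50 weeks 3 of the 5 passed on the authors' values (30.4% of the miRNAs tested), 2 with the 75th percentile of the 322 (29.4%), 2 with quantile normalization (24.1%) and 1 with the 90th percentile of the 322 (19.7%). With the mean log2 signal of the 322 (18.1%), the summed signal (16.8%), the detected reference miRNAs (19.7%) or miRNA-16-5p (14.5%) 0 of 5 passed, and 0 of the 4 that could be tested with miRNA-423-5p (20.5%). Without scaling 4 were called higher in SAMP1-50wk, against a background of 73.5%.

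At 50 weeks the scaled values of the strains did not overlap for any of the 5, as for 35.4% of the 322 miRNAs detected on all arrays (32.3% with SAMP1 below SAMR1). For miRNA-484 they were -0.12, -0.47, -0.03 and -0.08 in SAMP1-50wk and 0.28, 0.13, 0.13 and 0.28 in SAMR1-50wk. For miRNA-361-5p they were 1.51, 1.66, 1.55 and 1.69 against 1.99, 1.82, 1.77 and 2.04. The SAMP1 values of both were below all the SAMR1 values, with a gap narrower than the spread within SAMR1-50wk for miRNA-361-5p.

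For miRNA-320-3p the scaled values were -0.20, -0.62, -0.22 and -0.22 in SAMP1-50wk and -0.03, -0.06, -0.12 and 0.00 in SAMR1-50wk. For miRNA-186-5p they were -0.64, -0.88, -0.78 and -0.59 against -0.25, -0.37, -0.45 and -0.24. SAMP1-50wk animal 2 was the lowest of the 16 arrays for miRNA-484 and miRNA-320-3p. miRNA-423-5p differed least, with -0.32, -0.30, -0.33 and -0.33 in SAMP1-50wk and -0.15, -0.26, -0.26 and -0.15 in SAMR1-50wk. Relative to the median of the 322 miRNAs at 50 weeks (-0.22), miRNA-423-5p was 0.10 higher, and miRNA-320-3p, miRNA-361-5p, miRNA-484 and miRNA-186-5p stood at -0.05, -0.09, -0.17 and -0.18.

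Whether the strain difference changed with age was tested by the interaction of strain and age. It was -0.54 for miRNA-186-5p (SE 0.170, adjusted p = 0.0316) and -0.32 for miRNA-361-5p (SE 0.0934, 0.0245). It was -0.34 for miRNA-484 (0.0511), -0.18 for miRNA-320-3p (0.263) and -0.06 for miRNA-423-5p (0.576). The 2 calls of 5 stand beside a background of 26.8% (102 miRNAs, 95 of them below 0, which is 24.9%) and a median of -0.26, from which miRNA-361-5p differed by -0.05 and miRNA-186-5p by -0.28. Neither call held on any of these other scales: 0 of 5 passed without scaling, with the 90th or 75th percentile or the mean of the 322, the summed signal, the detected reference miRNAs, miRNA-16-5p or quantile normalization, and 0 of 4 with miRNA-423-5p. On these scales 0.525% to 12.4% of the miRNAs tested were called, and the interaction ran from -0.51 (quantile normalization) to -0.03 (no scaling) for miRNA-186-5p and from -0.26 (miRNA-423-5p) to 0.20 (no scaling) for miRNA-361-5p. On the authors' values the interactions were nearly as large, at -0.28 (adjusted p = 0.0947) for miRNA-361-5p and -0.50 (0.0831) for miRNA-186-5p, and did not pass.

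No detected reference miRNA was called for age. Averaged over the strains, the differences between 50 and 10 weeks lay between -0.05 and 0.05, and 0 of 5 passed (background 11.5%). Within SAMR1 they ran from 0.02 for miRNA-423-5p to 0.32 for miRNA-186-5p, with 0 of 5 called (9.97%), and without SAMR1-10wk animal 5 the latter was 0.18. Within SAMP1 they ran from -0.22 for miRNA-186-5p to -0.04 for miRNA-320-3p, again with 0 of 5 called (28.3%).

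The calls of miRNA-484 for strain and those of miRNA-484 and miRNA-361-5p at 50 weeks held whichever mouse was left out. The strain call of miRNA-361-5p was lost without animal 3 or 4 of SAMP1-10wk, 1 or 4 of SAMP1-50wk, 7 of SAMR1-10wk or 12 of SAMR1-50wk (-0.14 to -0.12, adjusted p 0.0507 to 0.0606). That of miRNA-320-3p was lost without SAMR1-10wk animal 1, 5 or 7, SAMR1-50wk animal 2, 6 or 12, or SAMP1-10wk animal 3, 5 or 6 (-0.18 to -0.16, 0.0517 to 0.0747). At 50 weeks, miRNA-320-3p was not called without SAMR1-50wk animal 12 (-0.25, 0.0566), nor was miRNA-186-5p without that mouse (-0.36, 0.0530) or without SAMP1-50wk animal 2 (-0.34, 0.0503). Without SAMP1-50wk animal 2 the difference of miRNA-320-3p at 50 weeks went from -0.26 to -0.16 (0.0209). Without SAMR1-50wk animal 12 the count of all miRNAs called at 50 weeks went from 180 to 117, and on the 50-week slide alone 107 miRNAs and 3 of the 5 passed.

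The interaction calls also lay near the threshold. Each was lost without any one of several mice, with estimates near those of the full fit (-0.32 for miRNA-361-5p and -0.54 for miRNA-186-5p). The call of miRNA-361-5p did not pass without animal 6 of SAMP1-10wk, 1 or 4 of SAMP1-50wk, 5 of SAMR1-10wk, or 2 or 12 of SAMR1-50wk (-0.31 to -0.27, adjusted p 0.0501 to 0.0550). That of miRNA-186-5p did not pass without SAMR1-50wk animal 2 or 12, SAMP1-10wk animal 5 or 6, or SAMP1-50wk animal 2 or 4 (-0.54 to -0.49, 0.0506 to 0.0677). miRNA-484 passed without SAMR1-50wk animal 6 or 9, or SAMP1-50wk animal 2, 4 or 11 (-0.39 to -0.24, 0.0314 to 0.0499).

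One value of miRNA-186-5p rested on how the software sums probes. The total gene signal counts only probes whose signal exceeds 3 times its error. On the array of SAMR1-10wk animal 5 the 20-base probe gave 1.99, or 2.64 times its error, and was left out, so that the total of 4.74 was that of the 21-base probe alone. On the other 15 arrays the 20-base probe stood at 3.14 to 4.15 times its error and was counted. Between 96 and 115 detected miRNAs per array had a probe left out in this way.

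With every probe of a detected miRNA counted, which was tried after seeing the data, the strain difference of miRNA-186-5p became -0.18 (adjusted p = 0.0150) and its interaction -0.42 (0.00969). Its SD over the 16 arrays fell from 0.220 to 0.168. Without SAMR1-10wk animal 5 its strain difference was -0.19 (0.0269). In both cases miRNA-186-5p was called lower in SAMP1, as it was not with the totals as deposited.

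The calls depended on what the arrays were scaled to. With the 90th percentile taken over the 322 miRNAs detected on all arrays, 1 of 5 reference miRNAs passed for strain (background 25.7%), and with their 75th percentile 2 passed (32.3%). With the summed signal (22%), the mean log2 signal of the 322 (21%), miRNA-16-5p alone (16.6%) or miRNA-423-5p alone (17.6%), 0 passed. Scaled to the mean of the detected reference miRNAs (for each of them, the mean of the other 4), 0 of 5 passed, and the background was 22.6%. On this scale the 5 strain differences have to balance out, so their signs carry no information on the common level.

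**Figure D3:**
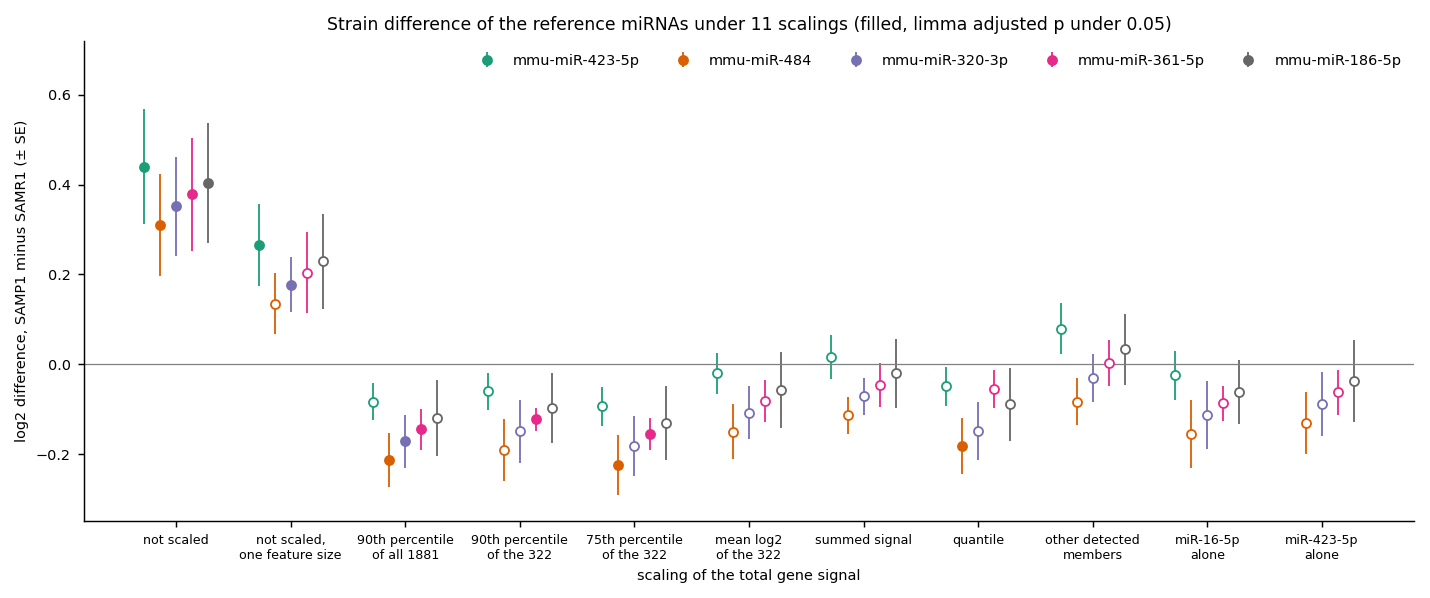
Strain difference (SAMP1 minus SAMR1, log2, ± SE, n = 8 mice per strain) of the 5 detected reference miRNAs under 11 scalings; filled points passed an adjusted p of 0.05 over the miRNAs tested. All 5 lie above 0 without scaling and below 0 with the 90th percentile over all miRNAs, where 3 are filled.

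The reference also set the direction of the calls over the whole array. With the 90th percentile over all miRNAs, 28 were higher and 91 lower in SAMP1. The split was 37 to 61 with the 90th percentile of the 322, 37 to 43 with their mean and 46 to 38 with the summed signal. It was 40 to 23 with miRNA-16-5p, 43 to 24 with miRNA-423-5p and 73 to 13 with the detected reference miRNAs. On the 90th percentile scale the split also turned where a fold of 2 was asked for as well (7 higher and 1 lower) and on the 10-week slide alone (29 higher and 6 lower).

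**Figure D4:**
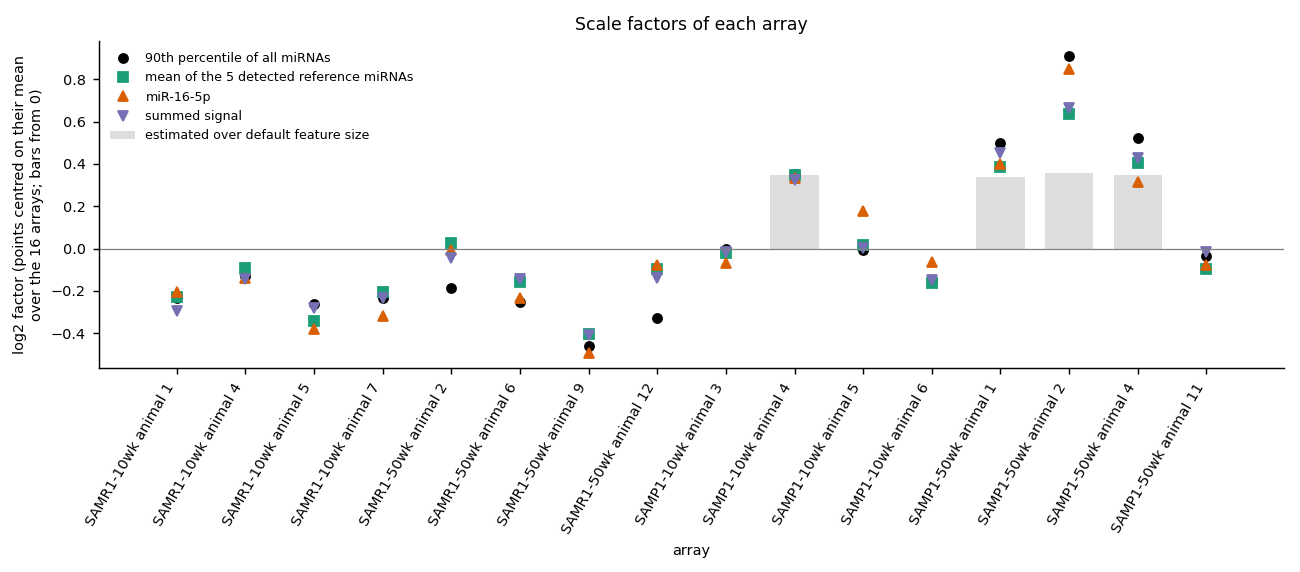
Log2 scale factor of each array, relative to its mean over the 16 arrays, for the 90th percentile, the summed signal, the detected reference miRNAs and miRNA-16-5p; grey bars show the log2 ratio of estimated to default feature size. The factors move together, and the 90th percentile spreads most of those scalings, with an SD of 0.376 against 0.294 for the reference miRNAs.

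The factors themselves differed between the strains. The log2 factor was higher in SAMP1 by 0.52 for the 90th percentile, 0.47 for miRNA-16-5p, 0.44 for miRNA-423-5p, 0.42 for the summed signal and 0.38 for the detected reference miRNAs. At 50 weeks the strain gap was 0.78 for the 90th percentile and 0.49 for the reference miRNAs, and at 10 weeks both gaps were 0.26. The gap between the 2 scales was thus one at 50 weeks. Each strain gap includes the feature size, which was larger on some SAMP1 arrays, most of them at 50 weeks. It was not taken out of these gaps, and it cancels between the 2 scales.

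Relative to the other 4, the strains did not overlap at 50 weeks for 2 of the 5 reference miRNAs, against 20.5% of the 322 miRNAs on the scale of the detected reference miRNAs. miRNA-423-5p was higher in SAMP1-50wk (-0.42 ± 0.137, SD, n = 4, log2 ratio to the mean of the others) than in SAMR1-50wk (-0.64 ± 0.0302), and the groups did not overlap. miRNA-186-5p was lower in SAMP1-50wk (-0.92 ± 0.0797) than in SAMR1-50wk (-0.79 ± 0.0238), again without overlap. The values of miRNA-484, miRNA-320-3p and miRNA-361-5p overlapped between the strains on this scale. None of the 5 passed the limma test there.

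The steadiness of the 5 was described by the SD of the log2 value over the 16 arrays, for which no test was made. With the 90th percentile over all miRNAs the SD was 0.0770 for miRNA-423-5p, the lowest of the 322 miRNAs detected on all arrays, 0.134 for miRNA-361-5p, 0.144 for miRNA-320-3p, 0.176 for miRNA-484 and 0.220 for miRNA-186-5p. The median of the 322 was 0.217, so 4 of 5 were below it. With the summed signal the order was different: 0.0741 for miRNA-320-3p, 0.0885 for miRNA-361-5p, 0.0950 for miRNA-423-5p, 0.1003 for miRNA-484 and 0.162 for miRNA-186-5p, with a median of the 322 of 0.197. miRNA-186-5p had the highest SD of the 5 on both scales, but on the first its place rested on the probe left out on 1 array: with every probe counted, its SD on the 90th percentile scale was 0.168 and that of miRNA-484 0.176.

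Several of the 5 stood close to the percentile that defined the first of these scales. The signal of miRNA-423-5p ranked at the 88.5th to 89.6th percentile of each array, that of miRNA-484 at 88.3 to 91.2, that of miRNA-320-3p at 87.3 to 89.95 and that of miRNA-186-5p at 85.4 to 89.3, whereas miRNA-361-5p ranked at 93.9 to 94.3 and miRNA-16-5p at 98.1 to 98.4. The median ranks were 90.1 for miRNA-484, 89.3 for miRNA-320-3p and 89.0 for miRNA-423-5p, and the range of miRNA-423-5p was the narrowest among them. Whether nearness to the 90th percentile bears on the SD was not tested. The 67 miRNAs ranked between 88 and 92 had a median SD of 0.199 with the 90th percentile and 0.194 with the summed signal.

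**Figure D5:**
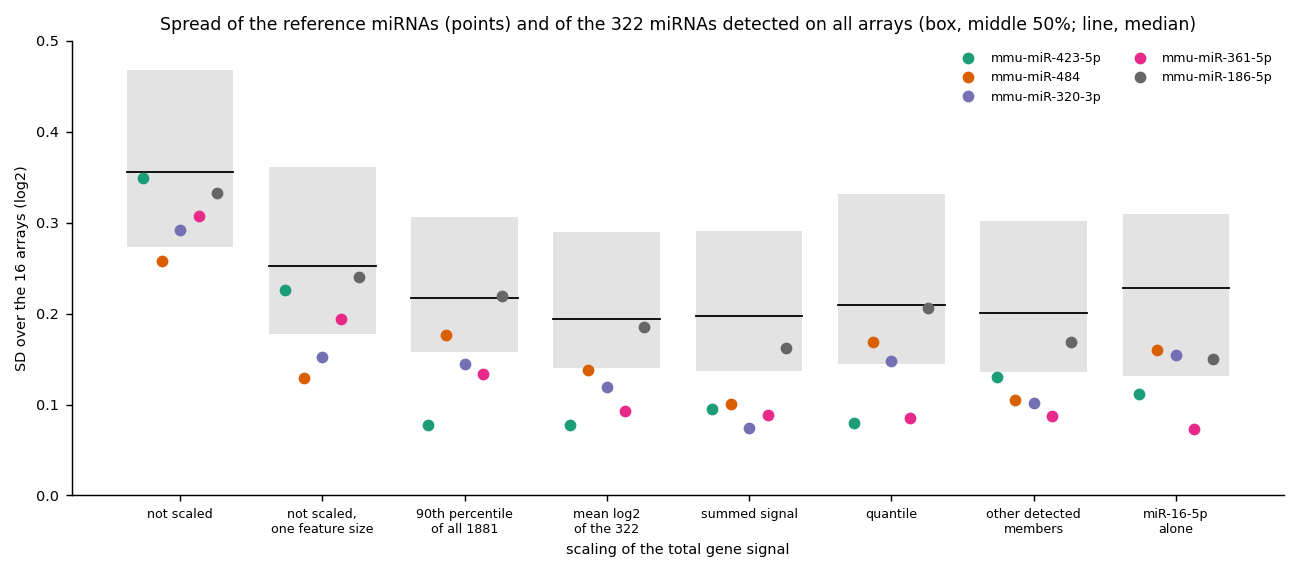
SD over the 16 arrays of the log2 value of each detected reference miRNA (coloured points) under each scaling, with the middle 50% (box) and median (line) of the 322 miRNAs detected on all arrays. With the 90th percentile miRNA-423-5p lies lowest at 0.0770, and with the summed signal miRNA-320-3p lies lowest at 0.0741.

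A ratio of 2 miRNAs on the same array needs no scaling. The SD of the log2 ratio over the 16 arrays had a median of 0.151 for the 10 pairs of detected reference miRNAs, against 0.310 for all 51681 pairs of the 322. It was lowest for miRNA-484 over miRNA-320-3p (0.0887) and highest for miRNA-423-5p over miRNA-186-5p (0.212). The log2 ratio of miRNA-484 to miRNA-320-3p was 0.28 ± 0.0977 (SD, n = 4) in SAMR1 and 0.32 ± 0.0176 in SAMP1 at 10 weeks, and 0.26 ± 0.0524 in SAMR1 and 0.14 ± 0.0506 in SAMP1 at 50 weeks. That of miRNA-423-5p to miRNA-484 was -0.31 ± 0.0636, -0.32 ± 0.15, -0.41 ± 0.0204 and -0.14 ± 0.217 in the same order, with its widest spread in SAMP1-50wk. The measuring error given by the software was 7.35% to 7.78% of the signal for miRNA-361-5p and 12.7% to 18.3% for miRNA-186-5p.

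The miRNAs most like the reference miRNAs were sought by the SD of their log2 ratio to the mean of the 5. They were let-7d-5p (0.0597), miRNA-652-5p (0.0611) and miRNA-429-3p (0.0619), against a median of 0.205 over the other 317 miRNAs. miRNA-16-5p ranked at 31 with 0.0915. On the 90th percentile scale, miRNA-16-5p had log2 values of 5.41 ± 0.0685 (SD, n = 4) in SAMR1 and 5.497 ± 0.112 in SAMP1 at 10 weeks, and 5.55 ± 0.134 in SAMR1 and 5.35 ± 0.0733 in SAMP1 at 50 weeks. Its strain difference was -0.06 (adjusted p = 0.404) and its interaction -0.30 (0.0533).

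A list of 12 other miRNAs that serve as references, miRNA-16-5p among them, was whole: all were detected on all 16 arrays. With the 90th percentile, 0 of 12 were higher (7.35% of all miRNAs tested) and 1 was lower in SAMP1 (23.9% of all), mmu-miR-152-3p at -0.13 (adjusted p = 0.0426), and the median of the 12 was -0.05. At 50 weeks 8 of the 12 were lower, where 40.4% of all miRNAs tested were. With the summed signal 0 of the 12 were called at 50 weeks (16.8% of all miRNAs tested were called). With the detected reference miRNAs 2 were higher and 0 lower (19.7%), and without scaling all 12 were higher (73.5%). Averaged over both ages and scaled to the detected reference miRNAs, 4 of the 12 were higher in SAMP1 (miRNA-24-3p, miRNA-17-5p, miRNA-92a-3p and miRNA-25-3p) and 0 lower, with a median of 0.09, where 19.2% of all miRNAs tested were higher.

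The choice of reference was also set beside the 12 miRNAs that the study carried on to qRT-PCR. The study had chosen them on these same mice, so their directions are no independent evidence. Of the 12, 5 were detected on all 16 arrays: miRNA-142a-3p, miRNA-142a-5p, miRNA-155-5p, miRNA-181d-5p and miRNA-451a. Of these, 4 were higher in SAMP1 with the 90th percentile (7.35% of all miRNAs), with the detected reference miRNAs (19.2%), with miRNA-16-5p (10.5%) and with miRNA-423-5p (11.3%), and miRNA-451a passed with none of the 4. The strain differences of the 4 ran from 0.77 to 1.02 with the 90th percentile and from 0.92 to 1.17 with the detected reference miRNAs, and those of miRNA-451a were 1.30 and 1.45. The other 7, let-7d-3p and miRNA-802-5p among them, were undetected on 3 to 8 arrays and entered the fit through the groups where they were detected, with a floor value elsewhere, so no call of theirs is given.

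Among the markers of other cell types, the leukocyte sum stood apart in SAMP1-50wk, and the erythrocyte, endothelial and muscle sums overlapped with those of other groups. Of 8 leukocyte miRNAs, 6 were detected on all arrays and miRNA-342-5p on 0, and their summed signal over the 90th percentile was 14.7 to 18.8 in SAMR1 and 15.7 to 20.6 in SAMP1 at 10 weeks, and 15.6 to 18.3 in SAMR1 and 29.8 to 46.7 in SAMP1 at 50 weeks. Of 4 erythrocyte miRNAs measured, 1 was detected on all arrays, and the sum varied widely within groups, at 11.9 to 152, 4.99 to 65.5, 3.21 to 9.05 and 26.8 to 164 in the same order. The 6 kidney epithelial miRNAs were detected on all arrays, which fitted the labelled tissue, with sums of 285 to 304, 336 to 369, 308 to 356 and 295 to 327. The 2 endothelial miRNAs were also detected on all arrays, with 85.5 to 93.4, 89.2 to 96.2, 87.96 to 108 and 77.9 to 89.7. Of 3 muscle miRNAs 1 was detected on all arrays and miRNA-206-3p on 0, with sums of 0.354 to 0.488, 0.515 to 1.22, 0.325 to 0.607 and 0.476 to 0.843. Their part in the shifts of the reference miRNAs was not tested.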

How the data were processed

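Kidney RNA of 16 mice was hybridized to 1-colour Agilent mouse miRNA arrays. The authors extracted the signals with Agilent Feature Extraction 12.0.3.1 (version from the submitters' processing notes), and the deposited scanner files hold, per spot, background-subtracted intensity values and, per miRNA, the total gene signal and its detection call. The authors also deposited a table of log2 values scaled to the 90th percentile, which served as an alternative.

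Here the total gene signal was divided by the 90th percentile of all miRNAs of the array and taken to log2, after undetected values had been raised to the lowest detected signal of their array. Fits took in the 381 miRNAs that had at least 1 group with a detection call in each of its 4 mice, and were run with limma 3.58.1 (R 4.3.3; lmFit and eBayes, 4 group means, 2-sided, Benjamini-Hochberg over the 381, threshold 0.05). Alternatives were other scalings, quantile normalization, processed spot signals, normexp background correction (offset 50), other filters and tests, each slide alone, a replicate block and leaving out each mouse. Tables and plots were made with Python 3.11.15, pandas 2.3.3, numpy 2.4.6 and matplotlib 3.10.9. The fit was tested on simulated data.

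The text names all 7 members and the 3 miRNAs with the steadiest ratio to them. Members of the other lists are named where their call differs from the rest of the list, chosen after their values were seen. Members and lists were chosen with earlier results of these data known. The replicates are separate mice, 4 per group, which limits the precision. Each array is 1 mouse and the 2 slides hold 1 age each.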

Additional observations from a re-analysis of the deposited data

Results flagged for a closer look

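On the 90th percentile scale, miRNA-320-3p was lowest in SAMP1-50wk animal 2, at -0.62 against -0.22 to -0.20 in the other 3 mice of the group. The gap was 0.936 of the range of the group, above the 95% limit for 4 values. Of the 20 groups tested for the 5 detected reference miRNAs this was 1, and chance flags about 1 group in 20. Before scaling, animal 2 gave 14.8, beside 14.9 and 14.8 in animals 1 and 4, and its array had the highest 90th percentile (22.7). Relative to the other detected reference miRNAs, animal 2 stood at -0.62, against -0.39 to -0.30 in the rest of the group.

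The strain difference of 2 reference miRNAs differed between the ages by the interaction test of limma. The interaction was -0.32 for miRNA-361-5p (adjusted p = 0.0245) and -0.54 for miRNA-186-5p (adjusted p = 0.0316), where 26.8% of the 381 miRNAs were called and the median was -0.26. Neither passed without scaling, on the other scales tried in place of the 90th percentile over all miRNAs, or on the authors' values, where they were -0.28 (adjusted p = 0.0947) and -0.50 (0.0831).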

How the results depend on the processing

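On the main scale, 119 miRNAs were called for strain, 44 for age and 102 for the interaction, and of the 5 reference miRNAs 3, 0 and 2, and 4 for strain at 50 weeks. Where a cause is not evident from how a setting was built, the cause was not tested.

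Without scaling, 271, 12 and 5 miRNAs were called, 5 members for strain and 0 for the interaction. The strain differences were 0.44 (miRNA-423-5p), 0.35 (miRNA-320-3p), 0.40 (miRNA-186-5p), 0.38 (miRNA-361-5p) and 0.31 (miRNA-484), and at 50 weeks 0.67, 0.52, 0.39, 0.48 and 0.40 in that order. Age differences were 0.15, 0.16 and 0.12 for miRNA-423-5p, miRNA-361-5p and miRNA-484, interactions 0.46, 0.34, 0.20 and 0.18 for miRNA-423-5p, miRNA-320-3p, miRNA-361-5p and miRNA-484, and the median SD of the members 0.307 against 0.144. With 1 feature size (added after seeing the data) the calls were 180, 13 and 3, with 0 members for the interaction and 2 at 50 weeks. The strain differences in the same order were 0.27, 0.18, 0.23, 0.20 and 0.14, those at 50 weeks 0.41, 0.26, 0.13, 0.22 and 0.14, the age differences 0.0648, 0.0700 and 0.0316, and the interactions 0.28, 0.16, 0.0244 and 0.00497.

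For the interaction, 0 members were called with any of the following. The 90th percentile of the 322 miRNAs gave 11 miRNAs, their 75th percentile 3, their mean 3, the summed signal 2, the detected members 4, miRNA-16-5p 4, miRNA-423-5p 47, quantile normalization 23 and the authors' values 49. The interaction of miRNA-423-5p was 0.18, 0.14, 0.12, 0.17, 0.28, 0.24 and 0.00209 in that order without miRNA-423-5p itself and the authors' values, and that of miRNA-320-3p 0.0629, 0.0176, 0.000392, 0.0491, 0.13 and 0.12 up to miRNA-16-5p. Strain calls of members were 1 with the 90th percentile of the 322, quantile normalization and the authors' values, and 0 with the mean, the summed signal, the detected members, miRNA-16-5p (63 miRNAs) and miRNA-423-5p (67). At 50 weeks they were 1 with the 90th percentile of the 322 (19.7% of all), 2 with the 75th (29.4%) and with quantile normalization (24.1%), 3 with the authors' values (30.4%) and 0 with the other 5 (14.5% to 20.5%). miRNA-423-5p at 50 weeks was 0.0303 with that 90th percentile, 0.0399 with the mean, 0.10 with the sum, 0.22 with the members and 0.0938 with miRNA-16-5p. miRNA-320-3p was 0.0363 with the members. For strain, miRNA-423-5p was 0.0166 with the sum and 0.0795 with the members, miRNA-186-5p 0.0335 and miRNA-361-5p 0.00193 with the members. The median SD was 0.0950 with the sum.

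Normexp gave 189 miRNAs for strain and 30 for the interaction, 1 member each for the interaction and for age in SAMP1, a strain difference of 0.00854 for miRNA-361-5p, a median SD of 0.0532 and, for the spread of the log2 ratio of each pair of members, median SD 0.0427. The median SD of the 322 miRNAs fell too, to 0.0771 from 0.217, so the lower spread was not particular to the members. Without a detection filter 1580, 22 and 8 were called, with 0 members for the interaction and 1 for age in SAMP1, since undetected miRNAs sit at a floor that scales with the array. Asking also for a fold of 2 left 8, 0 and 10, and 0 members for strain, the interaction or strain at 50 weeks. The 50-week slide alone gave 107 miRNAs and 3 members, against 180 and 4 from the fit of all arrays. The 10-week slide alone gave 35 miRNAs and 0 members, with 0.15 for miRNA-186-5p and 0.0140 for miRNA-361-5p. An unadjusted analysis of variance gave 104 miRNAs for age and 2 members for age in each strain, and 1 in SAMP1 when adjusted. Processed signals and every probe counted also gave 1 member for age in SAMP1.

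Age differences of members near 0 changed sign: miRNA-423-5p 0.0088 (90th percentile of the 322), 0.00089 (75th) and 0.00688 (quantile), miRNA-361-5p 0.0140, 0.00614, 0.00525 (miRNA-423-5p) and 0.0115 (normexp), and miRNA-186-5p -0.0161 (normexp), -0.00964 (processed) and -0.00863 (every probe). Leaving out 1 mouse, members called ranged from 1 to 3 for strain, 0 to 3 for the interaction, 2 to 4 at 50 weeks and 0 to 2 for age in SAMP1, and miRNAs for the interaction from 67 (without SAMR1-50wk animal 12) to 119. Age differences ran from -0.0356 to 0.00340 for miRNA-423-5p, -0.0199 to 0.0923 for miRNA-186-5p, -0.0311 to 0.0146 for miRNA-361-5p and -0.0716 to 0.00260 for miRNA-484.

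With a replicate block, 121, 44 and 103 miRNAs and 3, 0 and 3 members were called. The mouse numbers do not pair the samples: over 7 same-numbered pairs the correlations ran from -0.43 to 0.21, 2 of them over 0.1.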
